A study of Caenorhabditis elegans with 2 samples.

Results

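Of the 1537 peaks in the authors' conservative list for tagged DMD-8, 352 (22.9%) lay in the promoter window of a protein-coding gene and away from small structural RNA genes. A summit, the position of highest signal in a peak, was counted when it lay no further than 1000 bp upstream or 200 bp downstream of an annotated coding 5′ end. It also had to lie more than 200 bp from every tRNA, snoRNA and snRNA gene, which removed 96 of 448 promoter peaks. The 352 peaks are called coding promoter peaks here, and they fell in the windows of 404 of 19973 nuclear coding genes (2.02%). The list, its peak calls and the positions chose the peaks, so signal and position are described without a test. The peaks were thus selected on the authors' signal ranks and IDR and on their position.

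The data came from a single group of whole worms (Caenorhabditis elegans), L4 larvae aged 48.5 hours, in 2 biological replicates. The strain, OP775, carries the integrated transgene wgIs775 with dmd-8::TY1 EGFP 3xFLAG and unc-119(+), in the unc-119 (tm4063) background. All worms were synchronised by starving L1 larvae after bleaching. Chromatin was sonicated and precipitated with an antibody against GFP, so the assay reports the tagged transgene product and not the endogenous protein. Both replicates come from the same strain, the sexes were not recorded, and whole worms were used, so a peak cannot be assigned to a cell type. Control lists were not analysed here, and read depth is unknown from peak lists. Intervals below are exact 95% (Clopper-Pearson) intervals that cover counting of peaks or genes only.

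DMD-8 is a DM domain transcription factor, from a family named after Doublesex of Drosophila and MAB-3 of the worm. These proteins bind DNA through a zinc-containing domain that contacts the minor groove, and several of them direct sex-specific development of neurons, gut and gonad. A promoter is the stretch next to a gene's start where transcription factors and RNA polymerase II assemble. In C. elegans many messenger RNAs are trans-spliced, so that an annotated 5′ end often lies downstream of the place where transcription begins. Genes for tRNAs are read by RNA polymerase III from internal promoter elements called the A box and the B box.

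To show what the bases at these summits look like, 7 windows of 100 bp centred on the summit are printed. They are the strongest coding promoter peaks found in both replicate lists that hold a motif more frequent at summits than in flanks, outside chromosomes whose sequence is not shown. One further window was left out because it overlaps an untranslated exon. Sequences are the plus strand of RefSeq's ce11 (WBcel235), and capitals mark those motifs on either strand. They are the GAGA repeat GAGAGA, the KLF/SP site CCGCCC, the E-box CAGCTG and the CG repeat CGCGCG. All 7 windows lie outside annotated coding genes.
atx-2 chrIII:10461278-10461377: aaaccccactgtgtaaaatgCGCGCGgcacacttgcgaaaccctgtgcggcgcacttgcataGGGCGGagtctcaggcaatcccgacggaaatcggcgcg
F44E5.4 chrII:11759398-11759497: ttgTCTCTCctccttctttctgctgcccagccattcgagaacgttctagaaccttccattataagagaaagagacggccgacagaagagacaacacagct
srbc-38 chrV:706564-706663: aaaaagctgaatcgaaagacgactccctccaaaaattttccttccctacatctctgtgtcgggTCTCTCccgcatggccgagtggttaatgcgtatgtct
cnk-1 chrIII:10270886-10270985: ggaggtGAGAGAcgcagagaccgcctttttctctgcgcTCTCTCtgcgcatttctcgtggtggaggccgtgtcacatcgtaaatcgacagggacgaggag
K12H4.5 chrIII:8043920-8044019: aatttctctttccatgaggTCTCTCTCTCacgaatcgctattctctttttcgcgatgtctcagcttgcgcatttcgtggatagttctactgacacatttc
serp-1.1 chrX:15841252-15841351: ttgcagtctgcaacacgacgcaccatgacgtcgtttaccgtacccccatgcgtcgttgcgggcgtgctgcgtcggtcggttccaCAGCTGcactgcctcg
saeg-1 chrV:10866482-10866581: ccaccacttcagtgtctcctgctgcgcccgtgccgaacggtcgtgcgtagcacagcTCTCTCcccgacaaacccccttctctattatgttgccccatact

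The 7 windows range from 43% GC at K12H4.5 to 63% at serp-1.1. A GAGA repeat stands in 5 of them, and at K12H4.5 it runs on as overlapping copies. The window of atx-2, the ataxin-2 gene, has a KLF/SP site and a CG repeat. The cnk-1 window, beside the gene for a scaffold of Ras signalling, has GAGA repeats on both strands and the word AGACGCAG overlapping the first of them.

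Another set is shown because it holds letters of tRNA promoters although no annotated tRNA gene lies within 200 bp. It was chosen after its values were seen. Capitals mark the A box (TGGCNNAGT) or the B box (GTTCGANNC) on either strand. The srbc-38 window above also has an A box, in lower case as tggccgagt.
dhs-8 chrII:14496990-14497089: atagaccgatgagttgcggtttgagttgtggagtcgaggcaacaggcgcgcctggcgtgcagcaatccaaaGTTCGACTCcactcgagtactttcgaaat
sms-3 chrIII:1601596-1601695: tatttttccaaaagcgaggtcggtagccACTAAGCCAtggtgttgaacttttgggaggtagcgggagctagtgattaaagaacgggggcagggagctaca
nduf-9 chrIII:3249178-3249277: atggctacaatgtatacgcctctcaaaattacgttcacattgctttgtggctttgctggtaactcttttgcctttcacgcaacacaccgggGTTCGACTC

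Signal values of the coding promoter peaks, the authors' per-peak value from the peak caller, ran from 5.00 to 254. Their median was 86.9, with quartiles of 77.4 and 99.4. Compared with the whole list they were of middling to low rank: 28 of 308 peaks (9.09%) with the highest signal were coding promoter peaks, 65 of the next 307, and then 93, 82 and 84 in the 3 remaining groups. The 2 strongest ranked only 37 and 39 in the list. The irreproducible discovery rate (IDR), which measures how well a peak's rank repeats between compared lists, ran from 7.29e-05 to 0.00996 with a median of 0.00397.

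The strongest coding promoter peaks stood beside genes of varied function, and all 20 with the highest signal were in both replicates' own lists. The peak 986 bp upstream of dhs-8, which encodes a short-chain dehydrogenase, had a signal of 254, with 114 in replicate 1 and 140 in replicate 2. The peak 271 bp upstream of rpl-3, a large-subunit ribosomal protein gene, was as high at 253, with 123 and 127. The 2 values of rpl-3 were nearly equal, and those of dhs-8 were further apart. Between tasp-1, a taspase gene, and K01G5.10 the signal was 225, with 133 in replicate 1 and 90.04 in replicate 2. The peak of sms-3, a sphingomyelin synthase gene, had 212, with 107 and 110. The rpl-15 peak, shared with K11H12.8 on the other strand, had 191 but was less even, with 121 and 65.9. These 5 peaks all lay outside coding genes.

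The rest of the strongest 20 ran from 198 down to 148. Highest of these was a peak shared by pcrg-1 and E04F6.6, at 198, followed by the atx-2 and ecps-1 peak printed above at 187. The eel-1 peak, beside a HECT-type ubiquitin ligase gene, had 185, with 90.7 and 88.8. A peak between F44E5.4 and F44E5.5, divergent genes of the heat-inducible Hsp70 family, had 175 and lay 137 bp and 214 bp from their 5′ ends. Others stood at rpl-35 (171), at the chemoreceptor gene srbc-38 (166) and between dlc-1, a dynein light chain gene, and nduf-2.2, a complex I gene (166). Lower still were let-754, an adenylate kinase gene (158), hsr-9 with rps-19 (157), the ESCRT gene vps-37 (156), cnk-1 (152) and nduf-9 (152). The last were F08G2.5 (151), the histone gene his-59 (149.9) and dnj-13 with F54D5.9 (148). The summit of his-59 fell in a coding exon of another gene, and those of let-754 and dnj-13 in introns of other genes.

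Replicate values lay within 1.5-fold for most coding promoter peaks, but their order repeated little and few peaks passed in both replicates' own lists. In the longer ranked lists from which each replicate's list was drawn, 351 coding promoter peaks had an overlapping peak in replicate 1 and 346 in replicate 2. There the signal ran from 32.5 to 133 (median 44.5) in replicate 1 and from 29.6 to 140 (median 41.6) in replicate 2. Over the 346 peaks with both values the log2 ratio of replicate 1 to replicate 2 had a median of 0.10 and an SD of 0.40, from -1.01 to 1.57. For 293 of them (84.7%) the 2 values lay within 1.5-fold. So did those of 18 of the 20 strongest, the exceptions being rpl-15 and his-59. Values within 1.5-fold were found for 217 of 239 peaks (90.8%) in neither replicate's own list. For peaks in 1 such list it was 46 of 72 (63.9%), and for those in both 30 of 35 (85.7%). Pearson's r was 0.59 and Spearman's rho 0.15 over these 346 peaks. The authors' list had selected the peaks using both replicates, which bears on the correlations and on the shares within 1.5-fold. The same shares over all peaks of the list are not given here.

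Of the 352 coding promoter peaks, 35 (9.94%, interval 7.02 to 13.6) overlapped a peak in both replicates' own thresholded lists. Another 74 (21.02%) overlapped one in a single list, 39 in replicate 1 and 35 in replicate 2, and 243 (69.0%) in neither. Their median signals were 151, 103 and 81.7 in that order. The authors' optimal list held 256 of the 352 (72.7%). The replicate lists held 629 and 545 peaks, against 1537 in the conservative list, which limits these shares for peaks of any class. The same shares over all 1537 peaks are not given here, so the counts do not set coding promoter peaks apart.

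**Figure D1:**
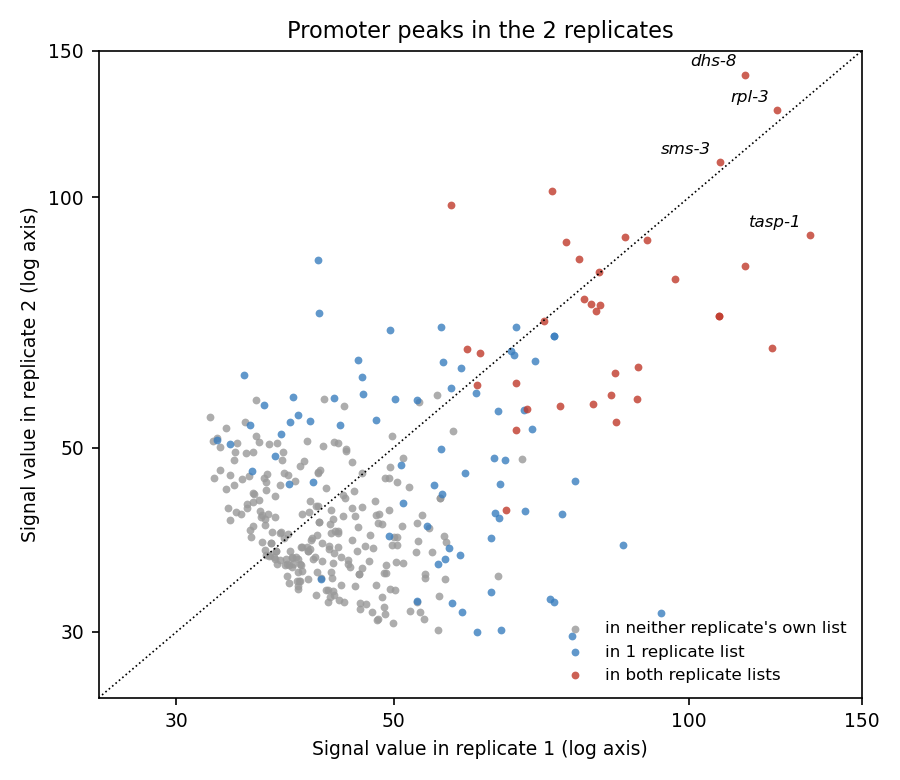
Signal value of each coding promoter peak in the ranked list of replicate 1 (x, log axis) and replicate 2 (y, log axis), for the 346 peaks with both; colour gives the number of replicate thresholded lists that hold the peak and the dotted line marks equal values. Among the 35 peaks in both lists the highest values are 133 in replicate 1, at tasp-1, and 140 in replicate 2, at dhs-8. The 239 drawn that are in neither list crowd near the medians of all coding promoter peaks, 44.5 and 41.6.

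A few of the weakest peaks were companions of a stronger one. Of the 15 with a signal under 60, 12 had another peak of the list within 300 bp, and for 11 of these that peak was stronger. Among the other 337 peaks, 9 had such a neighbour. At pcrg-1, a peak of 39.3 lay 201 bp from the peak of 198. At T13C5.6, a peak of 8.06 lay 206 bp from a peak of 146. Both peaks of these 2 pairs overlap the same peaks of the replicate lists, so they were given the same replicate values. The lowest of all, 5.00 at stn-1, a syntrophin gene, lay 208 bp from a peak of 86.1.

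Summits lay mostly upstream of the nearest coding 5′ end, at a median of -314.5 bp with quartiles of -608.5 and -86.75. Upstream summits numbered 299 of 352 (84.9%). From the far edge inward, successive steps of 200 bp held 40, 54, 57, 70 and 78 peaks upstream, and the 200 bp downstream held 53. An even spread within windows that do not overlap would put 16.7% in each step. The step next to the 5′ end held 22.2% and the farthest 11.4%. Where windows overlap the nearest 5′ end was taken, which moves distances toward the 5′ end, and its part in the rise was not tested. The distance histogram thus rises toward the gene without a sharp peak at its start.

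**Figure D2:**
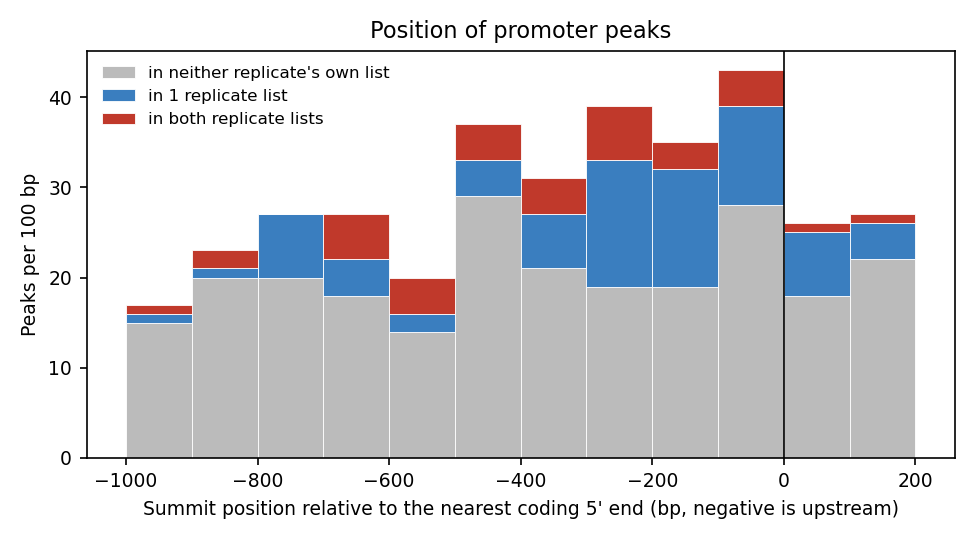
Number of coding promoter peaks per 100 bp of distance between summit and nearest coding 5′ end (negative is upstream), stacked by the number of replicate thresholded lists that hold the peak. Counts rise toward the 5′ end at 0, and the 35 peaks in both lists occur on both sides of it.

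Most peaks had a single candidate gene. A summit fell in 1 coding window for 282 peaks, in 2 for 65 and in at least 3 for 5. Together 70 peaks (19.9%) lay in 2 windows or more, as do 10.97% of the window bases. Between divergent genes lay 54 peaks (15.3%). Counted by gene symbol, 24 had 2 coding promoter peaks each, and none had more. The count includes his-58, a symbol that 2 gene entries with 1 peak each share.

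Summits kept to the space between genes more than the windows themselves do. They lay outside coding genes in 239 of 352 cases (67.9%, interval 62.7 to 72.7), whereas 42.7% of the window bases lie inside coding genes. Coding exons held 67 summits (19.03%), close to their 21.4% of the bases, 36 of them in the window's own gene and 31 in another gene. Introns held 23, of which 18 belonged to other genes, and untranslated exons 23. Soft-masked repeats made up a mean of 14.98% of the 100 bp at the summit, against 33.7% of the window bases.

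The limits of the rule fell between peaks a few bp apart in distance. The summit farthest upstream, 989 bp from Y69A2AR.31, had a signal of 113, and the nearest one outside, 1006 bp from ulp-4, had 89.3. Downstream, Y43B11AR.3 at 197 bp had 122 and acs-19 at 203 bp, outside, had 73.1. A summit 204 bp from the snRNA gene T11F9.15 was kept, at snr-4 with a signal of 75.6. One 176 bp from the snoRNA gene F39B2.14 was removed, at rps-26 with 78.4.

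The rule did not exclude other noncoding genes, and 40 summits (11.4%) lay within 200 bp of a gene annotated as ncRNA. The share of window bases that near to such genes is not given here. The counts in this paragraph therefore do not say whether these peaks favour noncoding genes. A miRNA gene lay within that distance of 3 peaks, at nduf-9, at F55A11.4 and in the shared window of rfc-4 and eef-1A.1. A lincRNA gene did so for 3, at chd-7, gei-4 and rpl-11.2, a piRNA gene for 4 and a pseudogene for 8. A tRNA pseudogene lay near 1, at Y69A2AR.31, and an rRNA gene near 0 of 352, which allows a share of up to 1.04%.

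Chromosomes differed in the share of their coding genes with a peak. It was highest on III, at 79 of 2640 genes (2.99%, interval 2.38 to 3.72), and lowest on V, at 61 of 4994 (1.22%, interval 0.936 to 1.57). The other autosomes lay between, with 2.26% on I, 2.09% on II and 2.32% on IV. On X, 51 of 2731 genes (1.87%, interval 1.39 to 2.45) had one, near the 2.02% over all chromosomes. The X chromosome held 48 of the 352 peaks (13.6%), against 14.5% of the window bases.

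Of the 32 lists, that of cytosolic ribosomal protein genes had the most genes with a peak. Of its 83 genes, 16 (19.3%, interval 11.4 to 29.4) had one, against 2.02% of all coding genes. Behind rpl-3, rpl-15, rpl-35 and rps-19 came rla-1 with a signal of 132, rpl-14 with 128 and rpl-7A with 116, and the weakest was rpl-27 with 70.5. The median signal of the 16 was 113, above the 86.9 of all 352 peaks, and 11 of them were in at least 1 replicate list. Their summits lay at a median of 282 bp upstream. In the single replicates' own lists, in which only 101 and 116 coding genes had a peak in all, the share was 9.64% and 10.8%. Mitochondrial ribosomal protein genes stood lower, with 2 of 70, at mrps-30 and mrpl-32. Of 43 translation factor genes, 3 had a peak (6.98%), and the interval of 1.46 to 19.1 holds 2.02%. These 3 were eif-3.C, an initiation factor subunit gene (118), and the elongation factor genes eef-1G (82.5) and eef-1A.1 (74.9). In the list of replicate 2 alone 0 of the translation factor genes had one, and in that of replicate 1 alone 6.98%. None of 31 aminoacyl-tRNA synthetase genes had one, which allows a share of up to 11.2%. The lists are described by their counts beside the share over all genes, and no list was tested.

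Genes of protein folding and of energy metabolism also had peaks. Of 63 heat shock and chaperone genes in the list, 7 (11.1%) had a peak. The strongest of these 7 was at dnj-13 (148), followed by dnj-28 (142) and hsp-60, a mitochondrial chaperonin gene (120). Further members were hsp-4, which encodes the BiP chaperone of the endoplasmic reticulum (93.9), and hsp-1, an Hsc70 gene (81.8). The list was matched by gene symbol, so the stronger peak of F44E5.4 and F44E5.5 (175) and that of enpl-1 (92.9) are not in its count. In single replicates' lists 4.76% of the list had a peak in each. Respiratory chain and ATP synthase genes had 6 of 52 (11.5%), led by nduf-2.2, nduf-9 and cox-5B, a cytochrome c oxidase subunit gene (113). The cox-5B and atp-1 summits lay only 9 bp and 4 bp upstream of the annotated 5′ ends. Vacuolar ATPase genes had 3 of 21, at vha-12 (86.8) and at vha-1 and vha-2, which share a peak (69.8). No peak of the vacuolar ATPase genes was in a replicate list. The respiratory chain share in single replicates' lists was 3.85% and 5.77%.

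Histone genes had a peak in 8 of 81 cases (9.88%), with signals from 68.1 to the 149.9 of his-59, which was followed by his-47 (109) and his-70 (102). Histone genes lie in clusters of near-identical copies, and the sources used here do not say how reads that match several copies were treated. The summits lay far upstream, at a median of 795 bp, and with windows of 500 bp the share was 1.23%. In the single replicates' lists it was 1.23% and 4.94%.

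**Figure D3:**
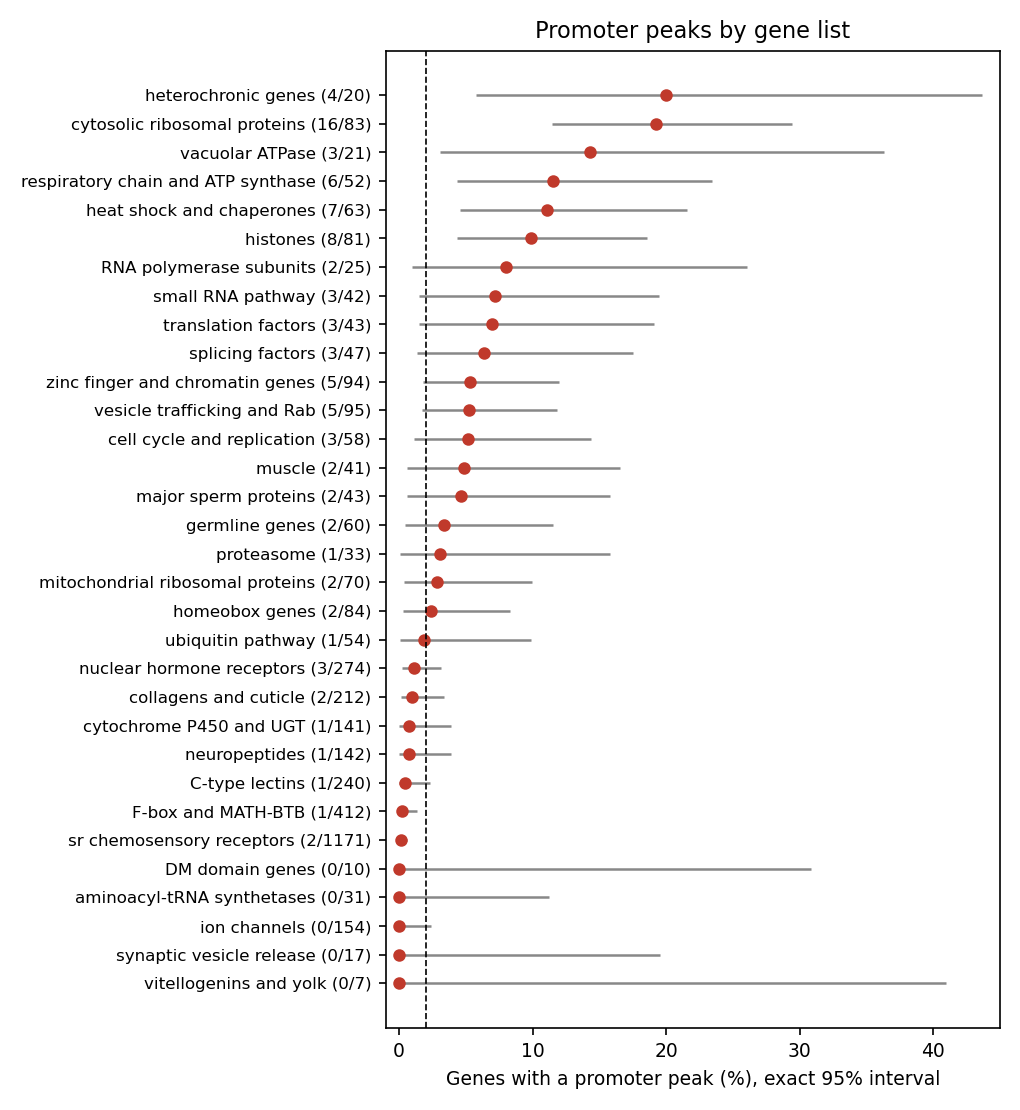
Percentage of the genes of each of 32 lists with a coding promoter peak (points) with exact 95% intervals (lines); numbers in brackets give genes with a peak over genes in the list and the dashed line marks the 2.02% of all coding genes. Ribosomal protein genes (16 of 83) stand to the right of the line and chemosensory receptor genes of the sr families (2 of 1171) to its left.

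Small groups of regulators were also present. Among 20 heterochronic genes, which time larval development, 4 had a peak: nhl-2, a microRNA cofactor gene (96.1), puf-9 (87.5), myrf-1, a transcription factor gene (87.2), and lep-2, a makorin gene (75.7). With 20 genes the interval is wide, from 5.73% to 43.7%, and in the single replicates' lists the share was 0% and 5%. Small RNA pathway genes had 3 of 42, at nrde-2 of nuclear RNA interference (147.5), the RNA-dependent RNA polymerase gene ego-1 (88.3) and the Argonaute gene wago-1 (74.1). Of 94 zinc finger and chromatin genes, 5 had a peak, led by set-21 (116), swsn-7 (93.2) and chd-7 (92.3). The set-21 peak is also that of rpl-7A. Vesicle trafficking genes had 5 of 95 (5.26%, interval 1.73 to 11.9), led by vps-37, sec-61.B (98.6) and vps-32.1 (94.4). The intervals of the small RNA, chromatin and vesicle trafficking lists hold the 2.02% of all coding genes.

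Among cell cycle and replication genes 3 of 58 had a peak (5.17%, interval 1.08 to 14.4). These were cdc-48.1 (118), the PCNA gene pcn-1 (82.9) and the kinase gene cdk-4 (81.0). The cdc-48.1 peak was the least even of these, with 93.7 in replicate 1 and 31.6 in replicate 2. Splicing factor genes had 3 of 47 (6.38%, interval 1.34 to 17.5), at rnp-1 (96.1), prp-19 (80.9) and snr-4 (75.6). The intervals of the cell cycle and splicing lists hold the 2.02% of all coding genes. Nuclear hormone receptor genes, a large family in worms, had 3 of 274 (1.09%, interval 0.226 to 3.17), at nhr-15 (133), nhr-47 (103) and nhr-99 (77.5). The nhr-47 peak lies 1 bp upstream of its 5′ end and 395 bp upstream of dnj-19.

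Several large gene families had few peaks. Chemosensory receptor genes of the sr families had 2 of 1171 (0.171%, interval 0.0207 to 0.616), at srbc-38 and srx-5. The list does not hold the str family of such receptors, of which str-39 had a peak (89.1). F-box and MATH-BTB genes had 1 of 412, C-type lectin genes 1 of 240, neuropeptide genes 1 of 142 and collagen and cuticle genes 2 of 212. Ion channel genes had 0 of 154, which allows a share of up to 2.37%. The intervals of the sr receptor and F-box lists lay wholly below 2.02%, and those of the other lists in this paragraph reached above it. No DM domain gene had a coding promoter peak, 0 of 10, which allows a share of up to 30.8%. The DM domain genes include dmd-8 itself.

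Genes with a coding promoter peak were a little longer and more often named than the rest. Their median span was 2204.5 bp, against 2022 bp for other coding genes. A gene name beyond the sequence name was present for 272 of 404 (67.3%), against 54.3%. A neighbour on the same strand ending within 200 bp upstream, as inside an operon, was present for 12.1%, against 9.46%.

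The sequence, which the rule did not use, had a raised GC content at the summit. The 100 bp windows had a median of 50% GC, from 22% to 72%, with quartiles of 45% and 55%. Windows centred 300 bp to either side had a median of 35.5%. The median difference was 13.5 percentage points, and the summit was higher in 306 of 352 peaks and lower in 43 (two-sided exact sign test over peaks, p = 4.95e-50). Steps of 50 bp show a narrow rise, from a mean of 34.9% at 300 bp upstream to 50.6% at the summit and 36.5% at 300 bp downstream. Windows of at least 50% GC made up 55.4% of summits and 5.67% of all 100 bp pieces of coding promoter windows.

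The same rise was found at other peaks of the list that lie away from small RNA genes. Median summit GC was 51% for 217 intron peaks, 51% for 235 coding exon peaks and 48% for 255 distal peaks. Their median differences from the flanks were 13, 11 and 12.5 points. GC content can also raise the recovery of fragments in library preparation and sequencing, and its part in the peak calls was not tested.

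**Figure D4:**
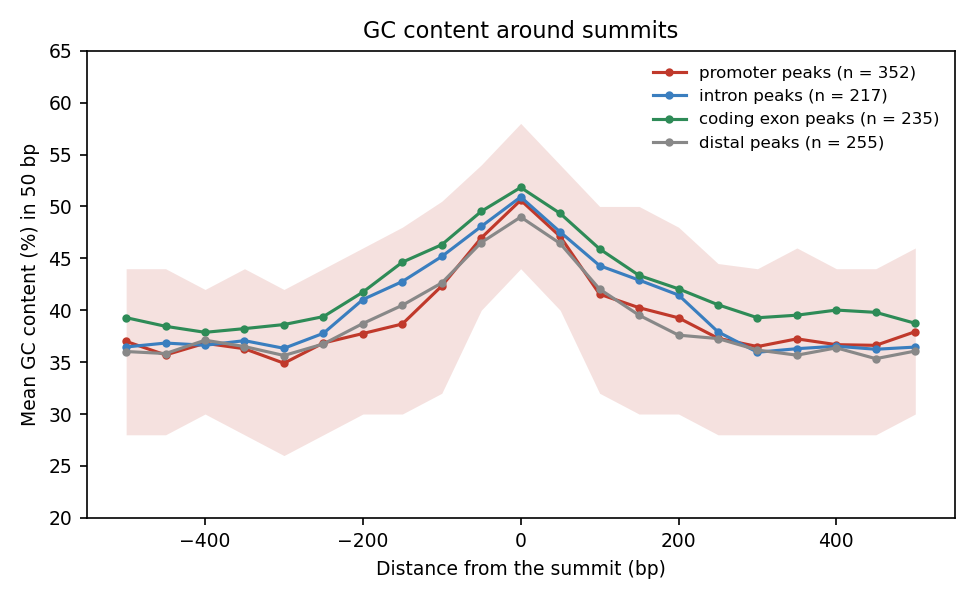
Mean GC content (%) in steps of 50 bp from 500 bp on one side of the summit to 500 bp on the other for coding promoter, intron, coding exon and distal peaks; the shaded band is the interquartile range of the coding promoter peaks. All 4 curves rise at the summit, to 50.6% for the coding promoter peaks.

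The canonical site of DM domain proteins was no more frequent at summits than beside them. The core ACATTGT, searched on both strands, stood in 6 of 352 summit windows (1.70%, interval 0.628 to 3.67). It stood in 6 of the flank windows, centred 300 bp away on the side away from the gene (exact McNemar test, Benjamini-Hochberg adjusted over 22 motifs, p = 1). Of all 100 bp promoter pieces, 1.78% hold it, and 1.18% when the pieces are weighted to the GC content of the summit windows. Both shares lie inside the interval of the summit share, which is wide because only 6 windows hold the core. The test says only that these letters were not more frequent in these windows than in the flanks, which are lower in GC.

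Against the flanks, 4 of the 22 motifs (18.2%) were more frequent at summits and 7 (31.8%) less frequent, by the same adjusted test. The motifs were chosen with earlier results of these data known, which the adjustment does not take into account. The KLF/SP site CCGCCC, which zinc finger proteins of the Krüppel-like and SP families bind, stood in 32 summit windows (9.09%) and 3 flank windows (0.852%, exact adjusted p = 1.44e-06). The GAGA repeat GAGAGA, bound in Drosophila by GAGA factor, stood in 57 (16.2%) and 26 (7.39%, exact adjusted p = 0.00186). The E-box CAGCTG, a site of basic helix-loop-helix proteins, stood in 20 and 2 (exact adjusted p = 0.000666). The CG repeat CGCGCG stood in 15 and 4 (exact adjusted p = 0.0401). At least 1 of the 4 was present in 113 summit windows (32.1%) and 33 flank windows (9.38%). The share was 28.6% in peaks of both replicate lists and 32.1% in those of neither. In the 78 and 95 coding promoter peaks of a single replicate's own list, 0 motifs were more frequent after adjustment, and 0 and 2 had an unadjusted p under 0.05. There GAGAGA was 10.3 and 11.6 points more frequent at summits and CCGCCC 6.41 and 5.26 points. CAGCTG differed by 0 and 7.37 points and CGCGCG by 3.85 and 3.16 points.

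The motifs that were rarer at summits are rich in A and T. The TATA box TATAAA, a core promoter element, stood in 8 summit windows (2.27%) and 48 flank windows (13.6%, exact adjusted p = 5.04e-07). In the lists of replicate 2 and replicate 1 alone its difference was -1.28 and -5.26 points, against -11.4 points in the conservative list. Runs of 7 T stood in 27 and 69 (exact adjusted p = 2.72e-05), the HOX/PBX site TGATNNAT in 7 and 28 (exact adjusted p = 0.00186) and the splice acceptor TTTCAG in 37 and 68 (exact adjusted p = 0.00538). The homeodomain site TAATTA stood in 7 and 23 and the GATA site TGATAA in 16 and 37 (both exact adjusted p = 0.00929). The heat shock element GAANNTTC stood in 11 and 26 (exact adjusted p = 0.0401).

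GC content differed between summits and flanks as well, and its part in the motif differences was not tested beyond these values. When promoter pieces were weighted to the GC content of the summit windows, 7.83% held the KLF/SP site, 4.32% CAGCTG, 3.70% the CG repeat and 3.88% the TATA box. Each of these lay inside the interval of the summit share. The weighted shares of the HOX/PBX site (4.16%) and the ETS site (5.78%) lay above theirs. For GAGAGA the weighted share was 10.3%, below the interval of the summit share (12.5 to 20.5). The weighted shares have no interval of their own, and the scarcest GC value among summit windows rested on 9 pieces. Sequence in overlapping promoter windows was counted more than once, and the summits' own sequence is included. Among the 62 peaks whose summit and flank differed by at most 5 points of GC, 0 of the 22 motifs passed, and 0 had an unadjusted p under 0.05. With 62 pairs a lost call says little. In these, GAGAGA was 4.84 points less frequent at the summit, and CAGCTG was 8.06 points more frequent, against 5.11 points over all 352 (both exact adjusted p = 1).

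**Figure D5:**
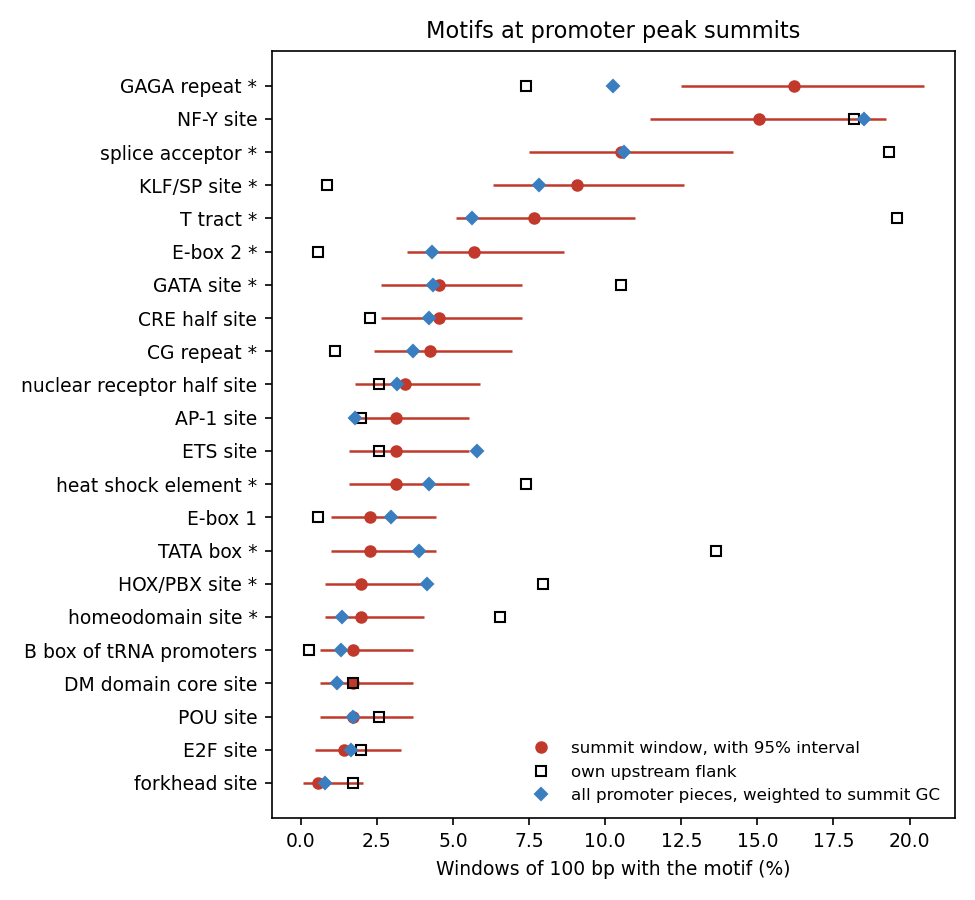
Percentage of 100 bp windows with each of 22 motifs at the summit (circles, with exact 95% intervals), in the peak's own upstream flank (squares) and in all promoter pieces weighted to the summit GC (diamonds); asterisks mark motifs whose summit and flank shares differed, and E-box 1 and 2 have central dinucleotides that differ. Most diamonds lie within the summit intervals, whereas the GAGA repeat, at 16.2%, stands above its diamond at 10.3%.

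The motifs were most frequent in the step at the summit itself. In steps of 100 bp the KLF/SP site went from 0.852% at 300 bp upstream through 4.26% at 100 bp upstream to 9.09%, and back to 1.14% at 300 bp downstream. GAGAGA was broader, with 11.6% at 200 bp upstream, 13.1% at 100 bp upstream and 12.8% at 100 bp downstream. The TATA box showed the inverse, with 7.67% at 100 bp upstream, 2.27% at the summit and 9.66% at 100 bp downstream.

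Compared with other peaks away from small RNA genes, the coding promoter peaks differed in few motifs. Of 44 comparisons with intron and coding exon peaks, 2 (4.55%) passed Fisher's exact test with Benjamini-Hochberg adjustment. GAGAGA stood in 16.2% of coding promoter peaks and 4.26% of coding exon peaks (exact adjusted p = 0.000188). Runs of 7 T stood in 7.67% and 1.70% (exact adjusted p = 0.0249). No motif passed against intron peaks, where the KLF/SP site stood in 7.37% and only the ETS site had an unadjusted p under 0.05, of 22 motifs.

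An unrestricted count of all 2080 words of 6 bases gave 201 (9.66%) more frequent at summits and 149 (7.16%) less frequent, by the exact McNemar test adjusted over all words. They divided by base composition: of the 36 words of G and C alone, 19 rose and 0 fell at the summit, and of the 36 of A and T alone, 0 rose and 33 fell. Words that fell had the lowest p, led by AAAATT, in 40 summit and 146 flank windows (exact adjusted p = 3.19e-15). Among words that rose, the strongest by p were ACGCAG, in 36 summit and 5 flank windows (exact adjusted p = 9.87e-06), CCGCCC, and AGAGAC, in 42 and 10 (exact adjusted p = 1.33e-05). GACCGC stood in 23 and 0 (exact adjusted p = 1.55e-05).

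Several of the words that rose overlap to spell AGACGCAG, which was put together after the counts were seen and so was not tested. It stood in 19 summit windows (5.40%, interval 3.28 to 8.30), in 2 of the upstream flanks and in 1 of the downstream flanks. All promoter pieces held it in 0.742% of cases, and in 2.41% when weighted to the summit GC. Distal peaks held it in 12 of 255 windows, intron peaks in 8 of 217 and coding exon peaks in 1 of 235. Beside cnk-1, whose window is printed above, the word stood at 18 peaks, the strongest of which were at Y39B6A.43 (signal 136), mdt-26 with ift-43 (122.5), ntl-11 (122.3) and hmg-1.2 (103.6).

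Letters of tRNA promoters stood at some of the strongest peaks. An A or B box was present in 12 of 352 summit windows (3.41%, interval 1.77 to 5.88), in 1.42% of upstream flanks and in 1.42% of all promoter pieces. For the B box alone the summit share was 1.70% and the flank share 0.284% (exact McNemar test, adjusted p = 0.212). Weighted to the summit GC, promoter pieces held the A box in 1.72% of cases and the B box in 1.33%, both inside the intervals of the summit shares (1.99% and 1.70%). The promoter pieces, unlike the summits, were not kept away from tRNA genes, so their shares can include letters of annotated tRNA genes. How far these raise the shares was not tested. Among the 20 strongest peaks, 5 had one (25%), at dhs-8, tasp-1, sms-3, srbc-38 and nduf-9, and among the other 332, 7 (2.11%). The dhs-8 and nduf-9 windows printed above have a B box, and the sms-3 and srbc-38 windows an A box. Peaks within 200 bp of an annotated tRNA gene had either box in 47.2% of cases, distal peaks in 11.8%, intron peaks in 9.22% and coding exon peaks in 1.28%. The 7 other coding promoter peaks with a box were at rla-1, rpi-2, F20B6.6, sna-1, F32B4.8 and, with 2 peaks, Y69A2AR.31. A match of such short letters is not a tRNA gene, and the nearest annotated small RNA gene of the dhs-8 summit was 22127 bp away.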

How the data were processed

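Peak lists were analysed for 2 biological replicates of a single group. Per the labels, chromatin was sonicated and precipitated with an antibody against GFP, and the deposited lists are on ce11. Per the deposited notes, the lists were made from an immunoprecipitation and a control file and compared by IDR. The sources used here name no aligner or peak caller. The authors made lists for each replicate and for both combined, and the conservative list rests on both. The deposited signal value is that of the peak caller and is not scaled between lists. The deposited score is set from the IDR and stops at 1000, which 171 of the 352 peaks reach, and the ranked lists give a −log10 IDR as a score. The deposited −log10 q-value was not used. Thresholds of the lists are the authors'.

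Genes came from Ensembl release 115 and sequence from RefSeq for the same assembly, and positions are 1-based. Replicate values are those of overlapping peaks (at least 1 bp) in the ranked lists. Windows of 100 bp at the summit were compared with windows centred 300 bp away, for motifs on the side away from the gene. Promoter pieces of 100 bp were taken from all coding promoter windows, also near small RNA genes. The 22 motifs, on both strands, were the DM domain core ACATTGT, the KLF/SP site CCGCCC, the GAGA repeat GAGAGA, the E2F site GCGGGAA, the E-box CACGTG, the E-box CAGCTG, the TATA box TATAAA, the homeodomain site TAATTA, the GATA site TGATAA, the POU site ATGCAAA, the forkhead site GTAAACA, the HOX/PBX site TGATNNAT, the CRE site TGACGT, the AP-1 site TGANTCA, the nuclear receptor site AGGTCA, the heat shock element GAANNTTC, the ETS site CCGGAA, the B box GTTCGANNC, the splice acceptor TTTCAG, the T tract TTTTTTT, the CG repeat CGCGCG and the NF-Y site CCAAT. The CCGCCC motif is also counted among the 6-mers. With a single group, tests compare positions or peaks, and their p-values say nothing of the spread between worms. Neighbouring and divergent peaks are not fully independent.

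The peaks, gene lists and motifs were chosen with earlier results of these data known. Genes named are those of the 20 peaks of highest signal, the 3 of highest signal in each list with at least 3 genes with a peak, DM domain genes with a peak and the peaks at the limits of the rule. The genes named with AGACGCAG, with a tRNA promoter box, near noncoding genes and at companion peaks were named after their values were seen, as were str-39, enpl-1 and further members of the ribosomal protein, chaperone, respiratory chain and short lists. The alternatives tried were each replicate's own list, the optimal list, the upper 176 peaks by signal, windows of 500 and 2000 bp upstream, a small RNA distance of 500 bp, tRNA pseudogenes and rRNA genes also excluded, windows of 200 bp, flanks at 500 bp or on the other side, pairs of like GC and other overlap rules. The alternatives for 6-mers were chosen after seeing the data. The motif test was run on simulated summit and flank windows of equal GC content, with and without planted motifs. It was therefore not tried under the GC difference of these data. The GC test was run on simulated windows with a planted GC difference. Software was matplotlib 3.10.9, scipy 1.17.1, pandas 2.3.3, numpy 2.4.6 and Python 3.11.15.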

Additional observations from a re-analysis of the deposited data

How the results depend on the processing

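The number of peaks was 78 to 95, that of genes 101 to 116 and the median distance -284 to -223.5 bp in a single replicate's list, where 0 motifs were more and 0 to 1 less frequent at summits. Genes with a peak numbered 218 in the upper 176 peaks by signal, 265 with windows of 500 bp upstream and 636 with 2000 bp. The median distance was then -151 bp and -585 bp, and 23 and 55 peaks were in both replicate lists. In the upper 176 peaks 61 words of 6 bases were more and 71 less frequent. Among the 62 pairs of like GC, 0 motifs and 0 words were more or less frequent after adjustment of the exact McNemar test. Without adjustment 0 motifs, and 5 words more and 10 less frequent, had a p under 0.05. There the difference between summit and flank turned for GAGA repeat (-4.84 points), CG repeat (-1.61), homeodomain site (1.61), splice acceptor (1.61), heat shock element (3.23) and T tract (6.45). With windows of 200 bp, 4 motifs differed from other classes. The GC rise kept its direction and its call in every alternative run for it, from 10 to 16.75 points. For the 11 motifs called, 90 results kept direction and call, 36 lost the call and 6 turned. The DM core had a difference from -4.21 to 3.23 points with no call. Of the gene list shares, 67 stayed within 1.5 times and 37 did not, and 17 left the exact interval of the share. Single lists hold fewer peaks, and causes were not tested. No paired analysis was possible because the data hold a single group. Peak lists carry no read depth, so neither replicate can be weighed by it.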
